A study of Mus musculus with 7 samples.

Results

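Trefoil factors and mucins are secreted or displayed by mucous epithelium, and 9 of their genes were followed across 7 mouse pancreatic ductal adenocarcinoma (PDA) tumors. They were *Tff1*, *Tff2* and *Tff3*, the membrane mucins *Muc1*, *Muc4* and *Muc20*, the gel-forming mucins *Muc5ac* and *Muc6*, and *Agr2*. They are 9 of 38026 genes in the deposited table and 9 of the 21322 genes with enough reads to be tested, taken by gene symbol. They were chosen with the difference between the tumor groups already known, so their own differences are given as a description, without a p-value.

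The tumors grew under the skin of the right flank of C57BL/6 mice for 2 weeks and received no treatment. The mice had been bought at 6 weeks of age and housed for 2 weeks before an experiment. All tumors came from 1 cell line, 1242, which was derived from a tumor of a KPC mouse, whose alleles include LSL-Trp53 R172H/+ and which expresses Cre in the pancreatic lineage from the Pdx1 promoter (Pdx1-Cre). The cells were transduced with lentivirus for SpCas9 and either a scrambled guide (sgScramble, n = 4, libraries 1 to 4) or a guide against *Krt19* (sgKrt19, n = 3, libraries 5, 6 and 8). *Krt19* encodes a keratin of simple epithelia, and the study asked how its editing in the cancer cells changes the tumor. Puromycin gave polyclonal lines, and single-cell clones were also made. The labels do not say which of these lines, or which *Krt19* guide, the sequenced tumors carried, so a difference between 2 cell lines and an effect of the edit cannot be told apart.

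Trefoil factors are small secreted peptides folded by disulfide bonds, and they are co-secreted with mucins. In the stomach TFF1 goes with MUC5AC in the surface (foveolar) cells, and TFF2 goes with MUC6 in the mucous neck and gland cells. TFF3 is the trefoil factor of goblet cells. Mucins carry dense O-glycans on stretches rich in serine, threonine and proline. In the pancreas, gastric-type mucous genes mark precursor lesions and the classical form of PDA. AGR2 is a disulfide isomerase of the endoplasmic reticulum needed for mucin folding.

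The sequences that set trefoil factors apart from mucins are the cysteine-rich coding stretches. They are shown from the first to the last cysteine codon after the leading 20 codons, which encode most of the signal peptide, 5′ to 3′ on the coding strand, read from the GENCODE M21 transcripts (GRCm38), with cysteine codons in capitals.
Tff1: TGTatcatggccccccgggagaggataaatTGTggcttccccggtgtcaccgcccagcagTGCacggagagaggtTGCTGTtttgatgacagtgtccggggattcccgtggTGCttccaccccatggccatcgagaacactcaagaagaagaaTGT
Tff2: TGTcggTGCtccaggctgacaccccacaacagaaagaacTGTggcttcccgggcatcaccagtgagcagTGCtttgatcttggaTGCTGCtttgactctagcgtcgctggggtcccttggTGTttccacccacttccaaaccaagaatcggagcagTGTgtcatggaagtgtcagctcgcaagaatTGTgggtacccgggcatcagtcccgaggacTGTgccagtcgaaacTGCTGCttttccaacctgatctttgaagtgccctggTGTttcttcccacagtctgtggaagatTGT
Tff3: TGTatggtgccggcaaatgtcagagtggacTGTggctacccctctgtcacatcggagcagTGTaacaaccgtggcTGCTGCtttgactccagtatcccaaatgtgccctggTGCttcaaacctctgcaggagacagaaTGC

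*Tff1* (codons 34 to 85) and *Tff3* (codons 33 to 79) each hold 7 cysteine codons here, and *Tff2* (codons 29 to 127) holds 14. In *Tff1* the 7 cysteines are separated by 9, 9, 4, 0, 10 and 13 codons. *Tff3* has the same spacing except for a last gap of 8. *Tff2*, the trefoil factor with 2 trefoil domains, has gaps of 10, 9, 4, 0 and 10 in the first domain. In the second domain they are 9, 9, 4, 0 and 10. Despite this shared layout the nucleotide sequences differ. The longest identical run was 11 bases between the *Tff1* and *Tff2* transcripts, 12 between *Tff1* and *Tff3* and 14 between *Tff2* and *Tff3*. These runs are far shorter than the 76-base reads, so a read of one trefoil factor does not match another in full. The mucins have another composition. Serine, threonine and proline take 44.1% of the codons of *Muc1*, 44.8% of *Muc4*, 43.5% of *Muc20*, 41.1% of *Muc6* and 31.2% of *Muc5ac*, against 12.6% to 22.2% in the trefoil factors. *Muc5ac* holds 255 cysteine codons of 3455 and *Muc6* holds 111 of 2918, whereas *Muc1* holds 3 of 631.

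Each value is a normalized read count: the reads of a gene, scaled by one size factor per library. The figure after ± is the SD of a group. A difference between groups is the log2 fold change of sgKrt19 against sgScramble from a linear model (limma) of log2(value + 1), with its standard error (SE). In that fit a gene is called at a Benjamini-Hochberg adjusted p under 0.05. Of all genes tested, 17.9% were called higher and 16.0% lower in sgKrt19 tumors. In 21.7% every sgKrt19 library lay above every sgScramble library, and in 19.3% every one lay below. Of the 9 genes, 5 were called higher (*Tff1*, *Tff2*, *Tff3*, *Muc1*, *Muc5ac*), 1 lower (*Muc6*) and 3 were not called. The groups were apart for the same 6 genes and overlapped for *Muc4*, *Muc20* and *Agr2*. Since the genes were chosen from this contrast, nothing is read from these counts. Their median log2 fold change was 0.91, beside 0.01 over all genes tested.

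Library totals were 40781199 to 44972100 reads. The edited gene followed its label: *Krt19* was at 25574, 21179, 27618 and 17841 in sgScramble tumors and at 1606, 1960 and 2470 in sgKrt19 tumors (log2 difference −3.52, SE 0.183, limma adjusted p = 1.74e-05). The tumors also differed in other cells. The summed value of 8 skeletal muscle markers was 49.2 to 2072 in sgScramble and 18269 to 26215 in sgKrt19 tumors, with 8 of 8 called higher. Of the sgScramble libraries, number 3 held the 2072. The summed value of 8 epithelial markers was 117665 to 159322 and 238670 to 248350, with 3 of 8 called higher (*Cdh1*, *Krt8*, *Krt18*). *Krt8* and *Krt18* made up most of that sum, whereas the means of *Epcam* were 910 and 913, those of *Krt7* 6848 and 3473 and those of *Cldn4* 31.4 and 15.2. The 8 leukocyte markers summed to 19975 to 27589 and 45467 to 50823, with 5 of 7 tested called higher. For 8 fibroblast markers the sums were 99217 to 231334 and 115288 to 130526, with none of 8 called. The part of these shifts in the values below was not tested. In bulk tumors fewer cells of a type and less RNA per cell cannot be told apart.

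*Tff1* (chr17:31161395-31165277, minus strand, 3 exons), the foveolar trefoil factor, was at 1802, 867, 5017 and 400 in sgScramble libraries 1 to 4 and at 18596, 21313 and 16706 in sgKrt19 libraries 5, 6 and 8. The lowest sgKrt19 tumor lay above the highest control, library 3. The means were 2021 ± 2080 (SD, n = 4) and 18872 ± 2316 (SD, n = 3), a ratio of 9.34, and the log2 fold change was 3.82 (SE 0.652). The controls spread 12.6-fold from lowest to highest, and the sgKrt19 tumors 1.28-fold.

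*Tff2* (chr17:31141049-31144282, minus strand, 4 exons), the 2-domain trefoil factor of mucous neck cells, was at 1190, 470, 3396 and 200 in sgScramble and at 12111, 10510 and 10857 in sgKrt19 libraries. The groups did not overlap, and the order of the controls was that of *Tff1*. The means were 1314 ± 1449 and 11159 ± 842, for a log2 fold change of 3.82 (SE 0.733). On the recovered reads edgeR gave smaller differences for this pair, 3.20 for *Tff1* and 3.06 for *Tff2*.

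*Tff3* (chr17:31125306-31129646, minus strand, 3 exons), the goblet cell trefoil factor, was far lower. It was at 10.2, 5.93, 62.1 and 0.927 in sgScramble and at 245, 171 and 297 in sgKrt19 libraries. The value of 0.927 stands for 1 read in library 4, under the floor of 3 reads (values of 2.74 to 3.47), so the control spread of *Tff3* is set by few reads. The means were 19.8 ± 28.5 and 238 ± 63.4, a ratio of 12.0, and the log2 fold change was 4.56 (SE 0.898). With a pseudocount of 10 in place of 1 it was 3.43. *Tff3* reached the filter of 10 in 3 libraries only through the sgKrt19 tumors, the other 8 genes through both groups.

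**Figure D1:**
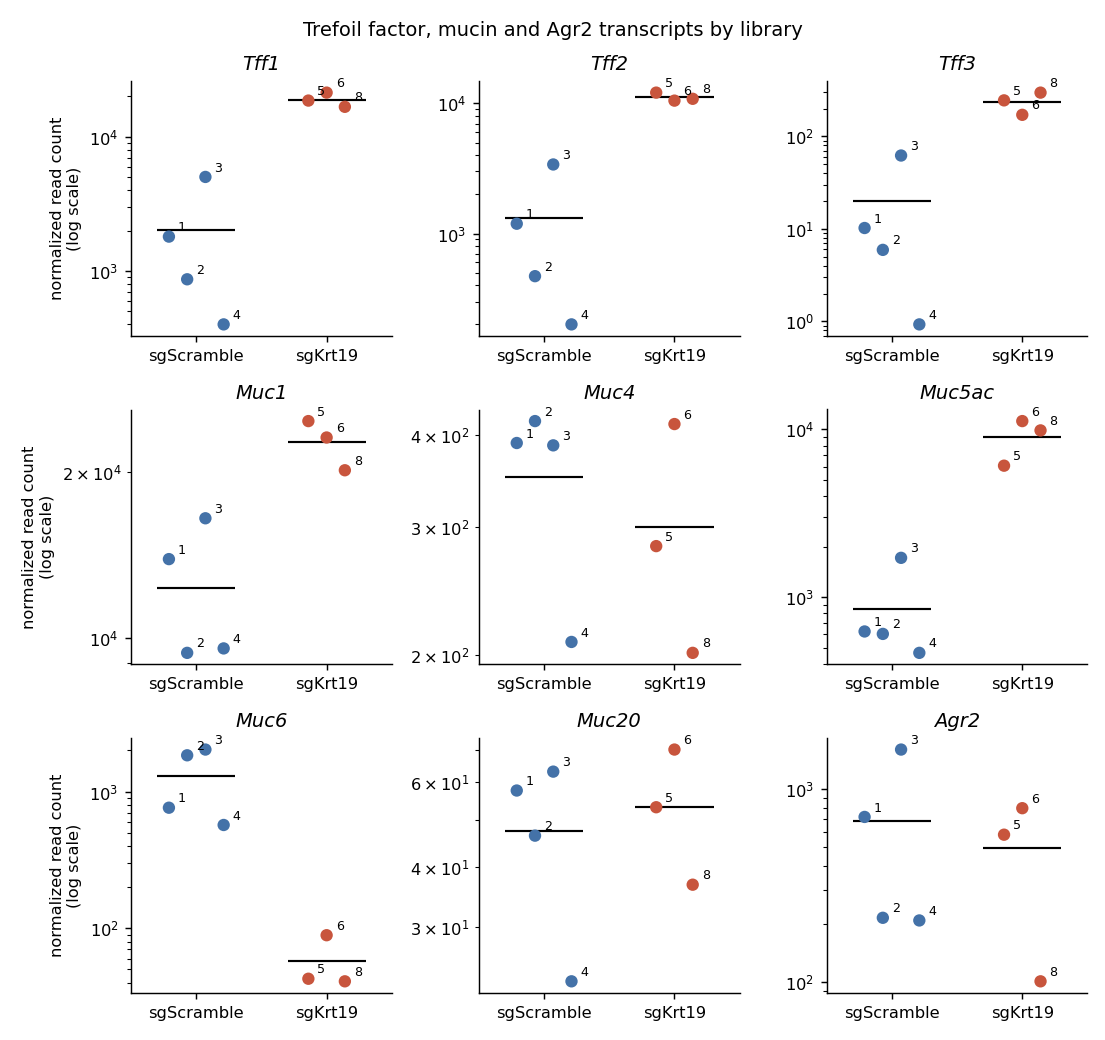
Normalized read counts (log scale, a separate range in each panel) of the 9 genes in 4 sgScramble (blue) and 3 sgKrt19 (red) tumors; numbers are the libraries and lines the arithmetic group means. For *Tff1*, *Tff2*, *Tff3*, *Muc1* and *Muc5ac* every red point is above every blue one, for *Muc6* every red point is below, and for *Muc4*, *Muc20* and *Agr2* the groups overlap.

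Library 3 was the highest control for all 3 trefoil factors and library 4 the lowest. Leaving out library 3 raised the log2 fold changes to 4.46 for *Tff1*, 4.53 for *Tff2* and 5.45 for *Tff3*. Of the sgScramble tumors, library 3 also had the most reads of the muscle markers. Together the 3 trefoil genes took 0.00158% to 0.0212% of reads in sgScramble and 0.0608% to 0.0723% in sgKrt19 libraries.

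*Tff1* shares 221 exon bases, 31.4% of its exon length, with *Gm15318*, an annotated antisense gene on the plus strand. *Gm15318* was at 1569, 766, 4363 and 344 in sgScramble and at 16039, 18473 and 14682 in sgKrt19 libraries. Its value was 0.861 to 0.884 times that of *Tff1* in every library. The study names a stranded kit, and the strand setting of the counting is not given in the sources used here. Reads of *Tff1* and of its antisense gene therefore cannot be told apart.

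The gel-forming mucins moved in opposite directions. *Muc5ac* (chr7:141788972-141819231, plus strand, 49 exons), the mucin of gastric surface cells, was at 623, 603, 1713 and 465 in sgScramble and at 6074, 11205 and 9860 in sgKrt19 libraries. Its lowest sgKrt19 tumor, library 5, lay above the highest control. The means were 851 ± 579 and 9046 ± 2661, a ratio of 10.6, for a log2 fold change of 3.56 (SE 0.388).

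*Muc6* (chr7:141633456-141655319, minus strand, 33 exons), the mucin of gastric neck and gland cells, was at 762, 1841, 2028 and 569 in sgScramble and at 42.8, 89.0 and 41.0 in sgKrt19 libraries. Every sgKrt19 tumor lay under every control, and the remaining values were well above the floor of 3 reads. The means were 1300 ± 741 and 57.6 ± 27.2, so the control mean was 22.6 times higher (log2 fold change −4.36, SE 0.449). It was the only one of the 9 called lower.

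Within a library, the ratio of *Muc5ac* to *Muc6* does not depend on the size factor. It was 0.818, 0.327, 0.845 and 0.816 in sgScramble and 142, 126 and 241 in sgKrt19 tumors, a log2 difference of 7.95. The 2 transcripts share no run longer than 15 bases, so reads of one do not match the other in full. *Tff2* and *Muc6*, which gastric neck and gland cells make together, parted in the same way: their ratio was 0.256 to 1.67 in sgScramble and 118 to 283 in sgKrt19 tumors. *Tff1* and *Muc5ac*, the surface cell pair, kept overlapping ratios of 0.860 to 2.93 and 1.69 to 3.06. *Tff1* to *Tff2* was 1.48 to 2.03 over the 7 libraries.

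**Figure D2:**
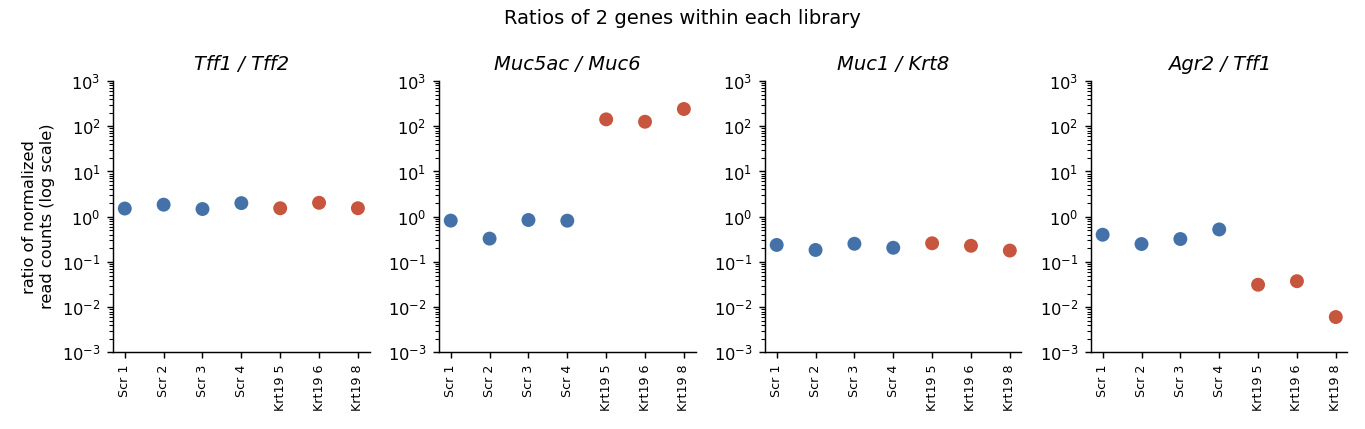
Ratio of the normalized read counts of 2 genes (log scale, same range in each panel) in each sgScramble (blue, Scr) and sgKrt19 (red, Krt19) library. *Tff1* to *Tff2* stayed between 1.48 and 2.03 and *Muc1* to *Krt8* between 0.178 and 0.258, whereas *Muc5ac* to *Muc6* went from under 1 to at least 126 and *Agr2* to *Tff1* was 0.0374 or less in the sgKrt19 libraries.

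*Muc1* (chr3:89229057-89233381, plus strand, 7 exons), a membrane mucin of most glandular epithelia, was the most abundant of the 9 genes by value. It was at 13901, 9407, 16479 and 9583 in sgScramble and at 24702, 23070 and 20128 in sgKrt19 libraries. The groups were apart, but by less than for the trefoil factors. The means were 12343 ± 3453 and 22633 ± 2318, a ratio of 1.83, for a log2 fold change of 0.91 (SE 0.202). Its ratio to *Krt8*, a keratin of simple epithelium that was also called higher, was 0.184 to 0.252 in sgScramble and 0.178 to 0.258 in sgKrt19 tumors, and overlapped.

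Ratios depend on the epithelial marker, so each gene was set against all 8 in the same library. For *Tff1* the log2 difference of the ratio was 2.85 to 5.17 over the 8 markers, for *Tff2* 2.85 to 5.18, for *Tff3* 3.94 to 6.27 and for *Muc5ac* 2.59 to 4.92. For *Muc6* it was −5.36 to −3.03. The groups did not overlap in any ratio of these 5 genes. For *Muc1* the difference was −0.063 to 2.27, and the groups overlapped for 6 of the 8 markers. For *Muc4* it was −1.22 to 1.11, with overlap for 6 markers and sgKrt19 tumors lower for 2. For *Muc20* it was −0.76 to 1.57, with overlap for 7 markers and sgKrt19 tumors higher for 1. The highest difference of each gene was that to *Cldn4*, which was at 26.6, 16.0 and 3.15 in sgKrt19 libraries, the last value at the floor of 3 reads. Ratios were taken without an added 1, so those of *Tff3* include the 1 read of sgScramble library 4. Against *Krt8*, *Tff1* was at 0.00857 to 0.0766 in sgScramble and at 0.148 to 0.210 in sgKrt19 tumors.

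The other membrane mucins differed by less than the spread between tumors. *Muc4* (chr16:32735886-32782391, plus strand, 27 exons), a large membrane mucin that binds ERBB2, was at 390, 418, 387 and 209 in sgScramble and at 282, 414 and 202 in sgKrt19 libraries. The log2 fold change was −0.24 (SE 0.287). *Muc20* (chr16:32777419-32797435, minus strand, 4 exons), a small membrane mucin, was at 57.6, 46.4, 63.0 and 23.2 in sgScramble and at 53.2, 70.0 and 36.8 in sgKrt19 libraries (log2 fold change 0.21, SE 0.363). Both sets of libraries overlapped, and library 4 was the lowest control for both. *Muc4* and *Muc20* overlap tail to tail and share 627 exon bases, 5.33% of those of *Muc4* and 15.6% of those of *Muc20*. Reads there cannot be told apart without strand.

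*Agr2* (chr12:35992907-36004087, plus strand, 8 exons) was at 719, 215, 1608 and 209 in sgScramble and at 581, 798 and 101 in sgKrt19 libraries. The groups overlapped over a spread of 7.71-fold in sgScramble and 7.92-fold in sgKrt19 tumors. The log2 fold change was −0.40 (SE 0.810), and it was 0.51 without sgKrt19 library 8. Among controls *Agr2* had the same order as *Tff1*, and its ratio to *Tff1* was 0.249 to 0.522. In sgKrt19 tumors that ratio was 0.00603 to 0.0374. Its ratio to *Epcam*, an adhesion molecule of epithelial cells, was 0.520 to 1.01 in sgScramble and 0.313 to 0.683 in sgKrt19 tumors. The groups overlapped in its ratios to all 8 epithelial markers.

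Per kilobase of transcript, levels can be set between genes. In sgScramble tumors the order of mean normalized reads per kilobase was *Muc1* (5505), *Tff1* (2875), *Tff2* (2250), *Agr2* (877), *Muc6* (148), *Muc5ac* (79.1), *Tff3* (40.2), *Muc4* (31.1) and *Muc20* (12.9). Between controls the SD of *Tff1* was 2959 and that of *Tff2* 2482. For *Muc6* and *Muc5ac* the SDs were 84.6 and 53.9. An SD between libraries does not measure how far apart 2 genes of the same library are. In every control the value of *Muc6* was above that of *Muc5ac*, although its transcript is shorter. In sgKrt19 tumors the order was *Tff1* (26844), *Tff2* (19108), *Muc1* (10095), *Muc5ac* (841), *Agr2* (629), *Tff3* (482), *Muc4* (26.5), *Muc20* (14.5) and *Muc6* (6.58). *Tff1* and *Tff2*, with SDs of 3294 and 1442 between libraries, had means above that of *Muc1*, and *Muc6* had gone from the fifth place to the last. For *Muc5ac*, *Agr2* and *Tff3*, which follow *Muc1*, the SDs were 247, 455 and 129. Their order is that of the means and did not hold in every library. In sgKrt19 library 8 *Agr2* was at 101 and *Tff3* at 297, although the transcript of *Tff3* is shorter. Among the 20779 tested genes with a transcript length, *Tff1* went from rank 1402 to rank 250, and *Muc6* from the 43.0 to the 6.70 percentile.

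The profile over the 7 libraries holds more than the group means. The controls ran 3, 1, 2, 4 from highest to lowest for 6 of the 9 genes (*Tff1*, *Tff2*, *Tff3*, *Muc5ac*, *Muc20*, *Agr2*). Of the 8 genes with a mean of 100 or more (all but *Muc20*) 5 had this order, beside 7.28% of the 15228 tested genes at that level. *Gkn1* and *Gkn2*, gastrokines of gastric surface cells, had it too, and so did the gastrokine *Gkn3* and *Krt8*. *Muc1* ran 3, 1, 4, 2, which was also the order of *Epcam*. *Muc6* ran 3, 2, 1, 4, as did *Muc5b*. Library 3 was highest in all of these orders, and among the 9 genes only *Muc4* had another library, 2, on top.

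**Figure D3:**
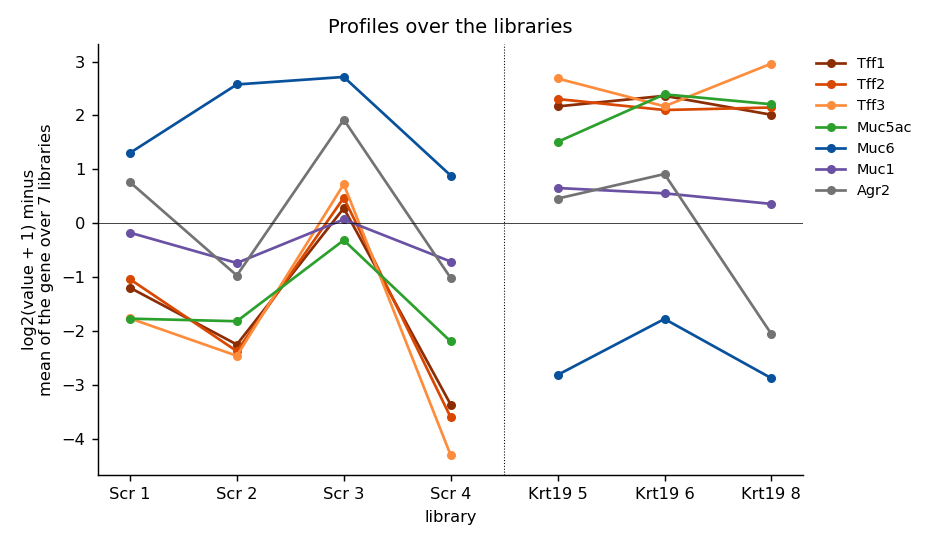
Log2(value + 1) of 7 of the genes in each sgScramble (Scr) and sgKrt19 (Krt19) library, less the mean of the gene over the 7 libraries; lines join libraries of a group only to guide the eye. The 3 trefoil factors run together with a control range that is widest for *Tff3*, *Muc6* stands on the opposite side in both groups, and *Agr2* is high in library 3 and low in sgKrt19 library 8.

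Genes most like *Tff1* were found by the root-mean-square difference of centred log2(value + 1) profiles over the 7 libraries, taken over 15227 genes whose mean value reached 100. The median difference was 2.13. After the antisense gene *Gm15318* (0.0127) came *Tff2* (0.185), *Mucl3* (0.409), *Slc9a4* (0.489) and *Ltf* (0.491). *Mucl3* encodes a mucin-like protein, *Slc9a4* a sodium-proton exchanger of gastric epithelium and *Ltf* the secreted iron-binding protein lactoferrin. *Tff3* was rank 8 (0.617) and *Muc5ac* rank 9 (0.623). *Muc1* was rank 501, *Muc4* 8868, *Agr2* 10347 and *Muc6* 15213. The measure takes in both the group difference and the order within groups.

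Among the other mucins, with 8 of 13 tested, 6 were called higher (75%, beside 17.9% of all genes) and none lower (beside 16.0%). The median log2 fold change was 1.16. *Muc3a* and *Muc13* were tested only through their sgKrt19 values and *Muc2* only through sgScramble, and 5 of the other 5 were called higher. *Muc5b*, the gel-forming mucin that neighbours *Muc5ac*, was at 503, 607, 1154 and 447 in sgScramble and at 2704, 3018 and 4844 in sgKrt19 libraries (log2 fold change 2.43, limma adjusted p = 0.000392). Its groups did not overlap. The ratio of *Muc5ac* to *Muc5b* was 0.993 to 1.49 in sgScramble and 2.04 to 3.71 in sgKrt19 tumors, without overlap. The 2 transcripts share a run of 42 bases, shorter than a read. *Mucl3* was also higher (3.49, limma adjusted p = 0.00086), and so was *Emcn*, a mucin-like protein of endothelium (0.82, limma adjusted p = 0.00653). *Muc2*, the gel-forming mucin of goblet cells, had means of 14.2 and 6.50 and was not called.

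Of the gastric and goblet cell products, 16 of 21 were tested. Of these 12 were called higher (75%, beside 17.9% of all genes) and none lower (beside 16.0%). The median log2 fold change was 2.08. *Lypd8* and *Psca* were tested only through their sgKrt19 values, and of the other 14 genes 11 were called higher. *Fcgbp*, a secreted mucus protein that binds trefoil factors, was at 12.1, 11.9, 41.1 and 9.27 in sgScramble and at 638, 874 and 875 in sgKrt19 libraries. On the log2 scale the fold change was 5.59 (SE 0.425, limma adjusted p = 3.49e-05). *Gkn2*, a gastrokine that binds TFF1, was higher by 3.77 (limma adjusted p = 0.0185) and *Gkn3* by 2.77 (limma adjusted p = 0.0212). *Gkn1* was taken after its values were seen, for its tie to *Gkn2*. It was at 2273, 531, 8503 and 128 in sgScramble and at 11853, 16298 and 6710 in sgKrt19 libraries, so that library 3 lay inside the sgKrt19 range (3.35, limma adjusted p = 0.0406). The call of *Gkn2* was lost with edgeR (log2 fold change 2.46, adjusted p = 0.0678) and with DESeq2 (2.47, adjusted p = 0.0929), and without sgKrt19 library 6 (limma adjusted p = 0.0576). For *Gkn3* it was lost with DESeq2 (2.04, adjusted p = 0.077), and without sgKrt19 library 6 or 8 or sgScramble library 2 (limma adjusted p of 0.0544 to 0.0677).

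Of the enzymes that build mucin O-glycans, 32 of 38 were tested. Of these 14 were called higher (43.8%, beside 17.9% of all genes) and 5 lower (15.6%, beside 16.0%), with a median of 0.34. With library size as the only scaling 5 were called higher and 8 lower. *B3gnt6* and *B3galt5* were tested only through sgKrt19 and *B4galnt3* only through sgScramble, and of the other 29 enzymes 12 were called higher and 4 lower. *Gcnt3*, which makes the core 2 and core 4 branches of mucins, was at 941, 612, 1048 and 445 in sgScramble and at 3527, 4533 and 5094 in sgKrt19 libraries (2.59, limma adjusted p = 0.000147). *B3gnt3*, which extends core 1, was higher by 0.91 (limma adjusted p = 0.000208) and *Galnt6*, which starts O-glycans, by 0.65 (limma adjusted p = 0.0168). *B4galnt3*, which makes the LacdiNAc unit, was at 155, 111, 244 and 147 in sgScramble and at 37.0, 55.0 and 8.40 in sgKrt19 libraries. *Galnt10* was at −0.69 (limma adjusted p = 0.00195) and *St3gal1*, a sialyltransferase of core 1, at −0.55 (limma adjusted p = 0.0161). The call of *Galnt6* was lost without sgKrt19 library 5 or 6 or sgScramble library 2 (limma adjusted p of 0.0511 to 0.0601) and with library size as the only scaling (limma adjusted p = 0.0823), and that of *St3gal1* without sgKrt19 library 8 (limma adjusted p = 0.0626). Without sgScramble library 2 or sgKrt19 library 8 the list held 12 calls, 9 higher and 3 lower. *A4gnt*, whose enzyme caps the glycans of MUC6 in gland mucus, had too few reads to be tested. It was at 4.64, 4.94, 22.8 and 0.927 in sgScramble and at 2.31, 0 and 2.10 in sgKrt19 libraries.

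For folding and packaging in secretory cells, the list next to *Agr2*, 24 of 27 were tested. Of these 8 were called higher (33.3%, beside 17.9% of all genes) and 2 lower (8.33%, beside 16.0%), with a median of 0.34. With library size as the only scaling 4 were called higher and 3 lower. *Rab27a*, a small GTPase of secretory granules, had means of 440 and 1392 (1.66, limma adjusted p = 0.000103), and *Sytl2*, its effector, was higher by 1.14 (limma adjusted p = 0.000326). *Manf*, induced by stress of the endoplasmic reticulum, was higher by 0.77 (limma adjusted p = 0.00509). *Creb3l1*, a membrane-bound transcription factor of secretory cells, was at −1.30 (limma adjusted p = 0.000197) and *Ern1*, a sensor of unfolded protein, at −0.47 (limma adjusted p = 0.0382). The call of *Ern1* was lost without sgKrt19 library 5 or 8 or sgScramble library 2 or 4 (limma adjusted p of 0.0772 to 0.132). Without sgScramble library 2 the list held 6 calls, 5 higher and 1 lower. *Ern2*, its form in mucous epithelium, had means of 143 and 187 and was not called.

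Of the regulators of mucous cells, 24 of 25 were tested. Of these 7 were called higher (29.2%, beside 17.9% of all genes) and 4 lower (16.7%, near the 16.0% of all genes). The median was 0.0045. With library size as the only scaling 5 were called higher and 6 lower. *Foxa3*, a forkhead factor of goblet cells, was at 469, 372, 503 and 313 in sgScramble and at 62.4, 66.0 and 38.9 in sgKrt19 libraries (−2.88, limma adjusted p = 4.63e-05). *Spdef*, which drives mucous and goblet cell maturation and *Agr2*, was at −1.08 (limma adjusted p = 0.0308). This call was lost without any one of the 3 sgKrt19 libraries (limma adjusted p of 0.0669 to 0.0875). The intestinal factor *Cdx2* (1.77, limma adjusted p = 9.44e-05) and the epithelial ETS factors *Ehf* (1.57, limma adjusted p = 5.41e-05) and *Elf3* (1.45, limma adjusted p = 0.000348) were higher.

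The classical PDA program, to which trefoil factor genes belong, had 21 of 24 tested. Of these 14 were called higher (66.7%, beside 17.9% of all genes) and 2 lower (9.52%, beside 16.0%), with a median of 1.06. *Myo1a*, a brush border myosin, was higher by 2.58 (limma adjusted p = 0.00134), *Ceacam1* by 2.25 (limma adjusted p = 0.000208) and *Anxa10*, an annexin of gastric epithelium, by 1.82 (limma adjusted p = 9.81e-05). *Gata6*, the transcription factor most used to mark the classical form, was at −0.41 (limma adjusted p = 0.0137). Of binding partners of trefoil factors and membrane mucins, 17 of 19 were tested. Of these 6 were called higher (35.3%, beside 17.9% of all genes) and 3 lower (17.6%, near the 16.0% of all genes). Their median was −0.055. With library size as the only scaling 5 were called higher and 7 lower. *Dmbt1*, a scavenger receptor protein that binds TFF2, had means of 24153 and 119190 (2.34, limma adjusted p = 0.000164). *Egfr* was at −1.06 (limma adjusted p = 0.000242), *Ackr3* at −0.76 (limma adjusted p = 0.0103) and *Lrig1* at −0.37 (limma adjusted p = 0.0178). The call of *Lrig1* was lost without sgKrt19 library 8 or sgScramble library 2 or 4 (limma adjusted p of 0.0511 to 0.0651). Some genes, such as *Fcgbp*, *Gkn2*, *Elf3* and *Anxa10*, stand in more than 1 list.

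**Figure D4:**
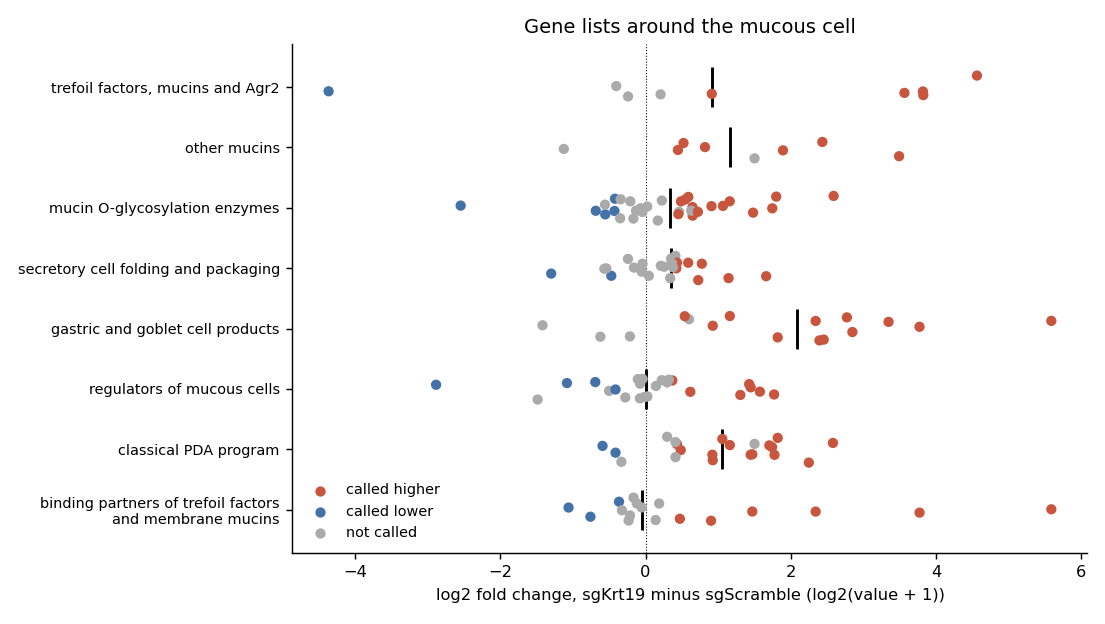
Log2 fold change (sgKrt19 minus sgScramble) of the tested genes of 7 lists and of the 9 chosen genes, 1 point per gene, with vertical bars at the medians and vertical scatter only to separate points. Gastric and goblet cell products have a median of 2.08 and none called lower, whereas the regulators of mucous cells have a median of 0.0045 with genes called on both sides.

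Members that lie together on a chromosome were examined with their neighbours. The 3 trefoil genes lie within 40.0 kb on chromosome 17, *Muc6* and *Muc5ac* within 185.8 kb on chromosome 7, and *Muc4* and *Muc20* within 61.6 kb on chromosome 16. Within 250 kb of these clusters lie 36 other protein-coding genes, of which 31 were tested, 8 called higher and 2 lower (median 0.14). Of all genes tested, 17.9% were called higher and 16.0% lower. Around the trefoil genes 3 of 8 were called higher. *Tmprss3*, a membrane serine protease with means of 3.01 and 20.2, was tested only through its sgKrt19 values. Of the other 7 genes 2 were called higher, *Ubash3a*, a gene of T cells (2.11, limma adjusted p = 0.000471), and *Slc37a1*, a sugar phosphate transporter (1.77, limma adjusted p = 0.000149). Between *Muc6* and *Muc5ac* lies *Muc2*, and the genes on either side of it differed by −4.36 and 3.56 on the log2 scale. Here 5 of 16 neighbours were called higher, *Muc5b* (2.43) the most and *Taldo1*, *Rplp2*, *Pnpla2* and *Mob2* by 0.29 to 0.98. Around *Muc4* and *Muc20* none of 7 was called higher and 2 were called lower, *Rubcn* (−0.67, limma adjusted p = 0.00235) and *Fyttd1* (−0.52, limma adjusted p = 0.0077).

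**Figure D5:**
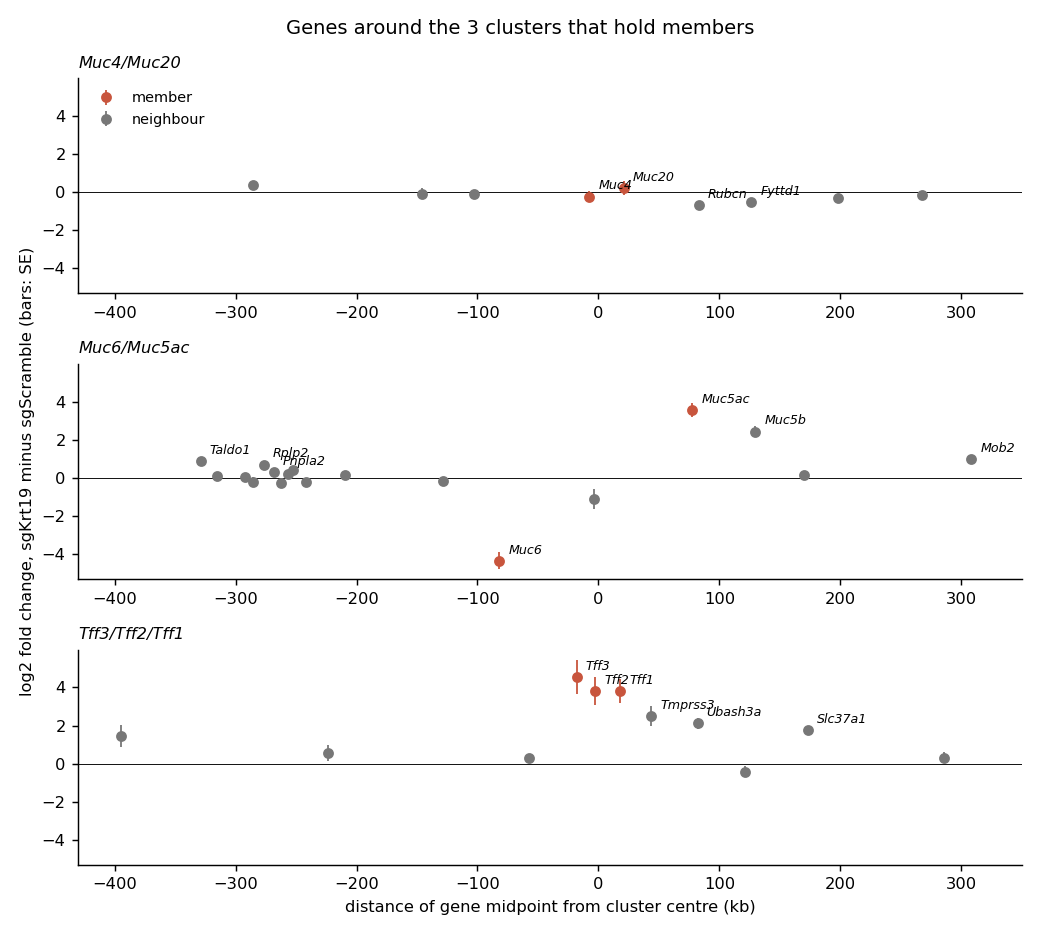
Log2 fold change (sgKrt19 minus sgScramble, bars are SE) of tested protein-coding genes against the distance of the gene midpoint from the centre of each cluster in kb; the chosen genes are red and the other genes grey, and genes called are named. *Muc6* at −4.36 and *Muc5ac* at 3.56 lie on either side of the same cluster, and the trefoil genes lie above 3.

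RefSeq promoter windows (250 bases before to 50 after the start, GRCm38.p6) were at hand for 5 of the 9 genes. Those of *Muc1* and *Muc6* are printed, since these were called, one in each direction, 5′ to 3′ on the strand of the gene. Capitals mark the TATA box and GC box letters given after them.
Muc1, chr3:89228806-89229105, plus strand: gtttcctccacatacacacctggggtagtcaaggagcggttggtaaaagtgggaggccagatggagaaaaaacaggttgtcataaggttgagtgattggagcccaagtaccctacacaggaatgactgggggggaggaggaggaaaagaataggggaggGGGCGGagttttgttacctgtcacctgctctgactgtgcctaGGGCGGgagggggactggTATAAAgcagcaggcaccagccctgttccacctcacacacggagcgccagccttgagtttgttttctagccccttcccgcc
Muc6, chr7:141655344-141655643, minus strand: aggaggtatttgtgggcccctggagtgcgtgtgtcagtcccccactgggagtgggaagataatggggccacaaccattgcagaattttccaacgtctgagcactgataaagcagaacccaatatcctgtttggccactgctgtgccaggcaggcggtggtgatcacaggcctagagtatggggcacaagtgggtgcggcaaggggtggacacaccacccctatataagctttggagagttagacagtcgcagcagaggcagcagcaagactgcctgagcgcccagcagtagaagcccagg

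Both strands of the windows were searched for 4 motifs. The TATA box was taken as TATAAA and stands in 13.6% of 32851 promoter windows. The GC box was taken as GGGCGG and stands in 35.7%. The forkhead motif was taken as TGTTTAC and stands in 3.65%. The STAT motif was taken as TTCNNNGAA and stands in 8.30%. Counted from the start site, *Muc1* holds the TATA box from base −31 and the GC box from −91 and −49. *Muc6* and *Agr2* hold none of the 4 in these exact letters. Variants were not searched, such as the tatataag in the *Muc6* window printed above. *Muc4* holds the TATA box from −36, and *Muc20* holds the forkhead motif on the opposite strand from −248. These matches describe letters in the windows.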

How the data were processed

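RNA from 7 tumors, 4 sgScramble and 3 sgKrt19, was sequenced as 76-base single reads after 12 amplification cycles. The study names a stranded total RNA kit, whereas the labels give polyA RNA. The authors deposited a normalized signal for 38026 genes, which are read counts divided by a size factor per library. Whole reads (within 0.05 of a whole number) were recovered for 100% of values. The labels name the build mm10, and the aligner and counter are not given in the sources used here. Groups follow the titles. No label says whether each library came from a separate mouse, so p-values measure only the spread between these samples.

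The 21322 genes that reached a value of 10 in 3 or more libraries were fitted on log2(value + 1), which understates changes of low genes, with limma 3.58.1 (lmFit, eBayes with trend, R 4.3.3), adjusted by Benjamini-Hochberg over all genes tested at 0.05. Alternatives were edgeR 4.0.16 (quasi-likelihood) and DESeq2 1.42.0 on recovered reads, library size only, TMM scaling, a pseudocount of 10, no filter, a filter at 50 and leaving out each library. The fits were first tested on simulated counts with the same dispersion for every gene. That setting does not cover the wide control spread of the trefoil factors. The floor of 3 reads covers counting error only, since reads carry no molecular identifiers.

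Members and lists were chosen with earlier results of these data known. Named list genes passed the threshold with groups that did not overlap and a mean of at least 100, at most 3 each way, and 1 gene that the rule names is not reported here. Neighbours lie within 250 kb. Positions come from GENCODE M21, levels per kilobase from its longest coding transcript, and promoters from RefSeq, matched by symbol. *Muc12*, *Muc15*, *Muc17*, *Muc21*, *St6galnac2*, *Atoh1*, *Barx1*, *Sdr16c5*, *S100p*, *Flg2*, *Csn1s1*, *Csn1s2a* and *Pnlip* were not analysed here. Marker lists of skin, mammary gland, acinar pancreas, endothelium and adipocytes were also summed.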

Additional observations from a re-analysis of the deposited data

Results flagged for a closer look

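Of 57 values searched for a library far from the rest of its group, 5 were found (8.77%), where chance gives about 1 in 20. The measure is the gap to the nearest library over the range of the group, set against Dixon's critical value for 4 libraries. *Muc4* stood out through sgScramble library 4, the lowest control (0.89). The other 4 stood out through sgScramble library 3, the highest control, which was also highest for the trefoil factors: *Fcgbp* (0.8291, just past that value), *Spdef* (0.878), *Myo1a* (0.876) and the summed value of the skeletal muscle markers (0.832).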

How the results depend on the processing

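The 9 genes were chosen from this contrast, so their ranges over 15 settings are a description. The log2 fold change ranged from 3.20 to 4.46 for *Tff1*, 3.06 to 4.53 for *Tff2*, 3.43 to 5.45 for *Tff3*, 0.70 to 1.06 for *Muc1*, 3.34 to 3.97 for *Muc5ac* and −4.72 to −4.08 for *Muc6*. For the others it ranged from −0.50 to 0.01 (*Muc4*), −0.098 to 0.45 (*Muc20*) and −0.98 to 0.51 (*Agr2*). Leaving out single libraries gave 12 to 18 calls among O-glycosylation enzymes (19 with all 7), 12 without sgKrt19 library 8 or sgScramble library 2, and 6 to 12 among folding and packaging genes (10 with all 7), 6 without sgScramble library 2. The cause was not tested. With library size only, the median over all genes tested was −0.21, and 27.7% of calls were higher in place of 52.8%. limma called 7240 genes, edgeR 7188, DESeq2 7971, and leaving out 1 library 4886 to 7739. Over 40 genes and their 560 values under an alternative, 22 lost their call, and no called gene reversed its sign. *Muc4*, *Muc20* and *Agr2*, which were not called, changed sign between settings. No paired analysis was possible because the groups share no replicate number. Depth limits *Tff3* in sgScramble tumors and *A4gnt*.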

Other observations

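Markers of other cells that the tumors could hold were summed per library. Skin keratinocyte markers came to 281 to 528 in sgScramble and 655 to 824 in sgKrt19 tumors, with *Krt1* and *Dsg1a* at or under the floor of 3 reads. Mammary gland markers came to 5.93 to 17.6 and 19.0 to 23.1, with *Csn2* and *Wap* at or under the floor. Acinar pancreas markers came to 767 to 1871 and 1687 to 2380, endothelial markers to 3450 to 5242 and 5445 to 6137, and adipocyte markers to 1040 to 2808 and 1929 to 2711.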
